A study of Arabidopsis thaliana with 9 samples.

Results

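Whole seedlings of Arabidopsis thaliana, wild-type ecotype Columbia-0, that had shared a closed dish with the nitric oxide donor sodium nitroprusside (SNP) were compared with untreated seedlings. The comparison took the 3 arrays of SNP seedlings and the 3 arrays of untreated seedlings out of 9 arrays in the series, chosen by the sample titles, and all 22746 probe sets of the array other than the manufacturer's controls. The third group, 3 arrays of seedlings with 1 mM of the nitric oxide scavenger cPTIO in their own dish, entered the fit for its spread and is described only where SNP seedlings were set against it. SNP was given as a 100 uM solution in an open donor dish beside the seedlings' open dishes, all inside a sealed outer dish, so the solution did not touch the plants. Treatment began at 3 days of age and lasted 5 days, and tissue of 8-day-old seedlings was taken in every group. The labels give no agent for the untreated seedlings, the design text calls them SDW without explaining it, and no label used here says whether they too were closed in an outer dish. If they were not, the effects of the agent and of the closed dish cannot be told apart. The titles call the 3 arrays of a group biological replicates. The protocol, however, describes a single outer dish with 3 receiver dishes for each agent. The p-values thus measure the spread between samples within all 3 groups and may not cover separate exposures. The mean variance within a group was 0.116 for cPTIO arrays, 0.048 for SNP arrays and 0.044 for untreated arrays. On average the cPTIO arrays therefore widened the spread used for SNP against untreated seedlings.

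Nitric oxide is a gas that plants use as a signal in germination, root growth, stomatal closure and defence. It binds haem and iron centres and modifies protein thiols, and phytohaemoglobins remove it. SNP releases nitric oxide in light and contains iron and cyanide groups as well. The expression array reports messenger RNA of a whole seedling, so fewer cells of a type and less RNA in each cell cannot be told apart for any gene described here.

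All levels are the authors' log2 expression values, and all differences are log2 differences, SNP minus untreated. A probe set was called when its Benjamini-Hochberg adjusted p, from limma across all 22746 probe sets, was under 0.05. A linear fold is given only where the lower group mean lay above 4.60, the highest array median, because detection calls were not used. Genes were named from the array's annotation for 13513 probe sets that it pairs with a single gene. Of the 205 probe sets in the 24 gene lists, 34 were named from the annotation, including some that it pairs with several genes, and 171 from knowledge of the array. Of 209 names first drawn from that knowledge, the annotation covered 34 probe sets and 32 names matched. The 2 that differed were dropped, WRKY53 and GSTU25 were moved to the probe sets that the annotation gives, and LHCB1 and IAA5 were left out because their neighbours did not match. The position of each of the 171 was also checked against annotated neighbours on the array, a check that cannot separate adjacent genes.

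The 9 light-harvesting protein genes, markers of green tissue, lay between 11.48 and 13.04 on SNP arrays and between 11.46 and 13.12 on untreated arrays. The 9 seed storage protein and oleosin genes, markers of embryo and seed, stood apart on untreated array 1, where they lay between 4.29 and 7.17, against a highest value of 4.83 on the other untreated arrays and 5.05 on SNP arrays. The log2 of their summed level was 7.29, 6.91 and 6.82 on SNP arrays and 9.41, 6.62 and 6.60 on untreated arrays. The hybridisation spike-in BioC, which is added in a fixed amount, was 8.53 ± 0.09 on SNP arrays and 6.32 ± 0.18 on untreated arrays (SD, n = 3 each), although the array medians of all groups lay between 4.47 and 4.60. The mean level of the 4 poly-A spike-ins (thr, phe, lys and dap) was 4.00, 4.34 and 4.76 on SNP arrays and 3.71, 3.90 and 3.78 on untreated arrays. Spike-in level and group thus run together, and with this level as a covariate in the fit 260 probe sets were called.

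Of 22746 probe sets, 1409 (6.19%) were called, 585 (2.57%) higher and 824 (3.62%) lower in SNP seedlings. At least 2-fold changes made up 189 of the higher calls (0.831% of all probe sets) and 373 of the lower calls (1.64%), and 31 and 74 of them were at least 4-fold. The median absolute difference of the called probe sets was 0.88, against a median SD within a group of 0.14. The SNP and untreated arrays did not overlap for any of the 1409, while 29.9% of all probe sets had groups that did not overlap. Between 500 and 936 probe sets were called when a single SNP array was left out, and between 516 and 895 when a single untreated array was left out. When each array was centred on its own median, which moved the median of all differences by 0.06, 53.3% of the 1528 calls were higher and 46.7% lower. The predominance of lower calls thus depended on the scaling.

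Among the largest increases were genes that turn stored oil into sugar in germinating seedlings. MLS, malate synthase of the glyoxylate cycle, had the largest difference of all probe sets: it stood at 9.89, 9.91 and 8.30 on SNP arrays and at 4.35, 4.98 and 4.51 on untreated arrays, a difference of 4.75 ± 0.66 (SE, adjusted p = 0.00661). ICL, isocitrate lyase, the other enzyme particular to that cycle, was 11.46, 11.40 and 10.45 on SNP arrays against 7.29, 8.39 and 8.41 on untreated arrays, 8.40-fold higher (adjusted p = 0.0309). PCK1, the phosphoenolpyruvate carboxykinase of gluconeogenesis, was 10.80, 10.82 and 10.01 on SNP arrays against 8.35, 8.11 and 8.65 on untreated arrays, 4.51-fold higher (adjusted p = 0.00303). In all 3 genes SNP array 3 was the lowest of its group and still lay above every untreated array. At2g47780, a lipid-droplet protein of the rubber elongation factor type, followed the same order, with 9.38, 9.32 and 8.08 on SNP arrays against 3.93, 4.87 and 4.26 on untreated arrays and a difference of 4.58 (adjusted p = 0.0052). AIM1, a multifunctional enzyme of peroxisomal beta-oxidation, rose by 0.40 (adjusted p = 0.0474). MLS and PCK1 are the only probe sets of their list. At2g47780 is in no list and was named for the size of its difference. ICL and AIM1 come from a list of 18 genes of lipid mobilisation made after earlier values had been seen, of which 3 had an annotated probe set, and the other one, SDP1, the lipase that opens stored oil, differed by 0.04 (adjusted p = 0.937). The seed storage protein and oleosin genes themselves were not called, 0 of 9, with differences between -1.25 and -0.16, and untreated array 1 held the highest value of each of the 9. MLS, PCK1 and At2g47780 were called when any 1 of the 9 arrays was left out. ICL was not called without SNP array 1 or 2 or without any 1 of the untreated arrays (adjusted p up to 0.115), and AIM1 not without any 1 SNP or untreated array or cPTIO array 2 (up to 0.144). With the spike-in covariate PCK1 alone of the 5 was called, and the adjusted p was 0.0664 for MLS, 0.0599 for At2g47780, 0.173 for ICL and 0.162 for AIM1.

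**Figure D1:**
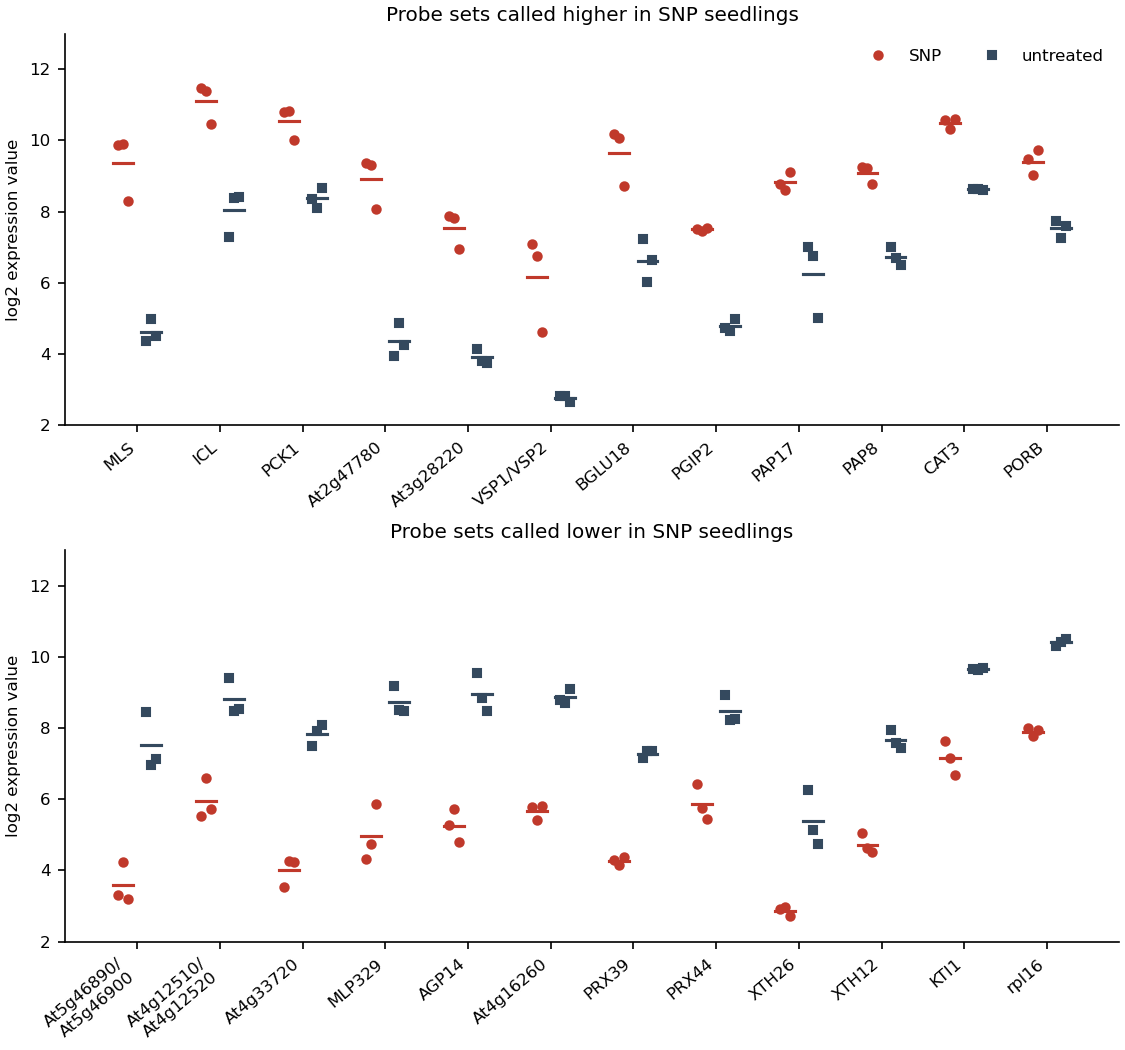
Log2 expression values on each array for 12 probe sets called higher (top) and 12 called lower (bottom) in SNP seedlings; circles are SNP arrays, squares untreated arrays and lines group means. The groups do not overlap for any of them, and for MLS, ICL, PCK1, At2g47780 and VSP1/VSP2 SNP array 3 lies below the other SNP arrays.

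Of the 40 largest increases, 35 could be named, 11 of them after their values had been seen. The probe set shared by VSP1 and VSP2, vegetative storage proteins of the jasmonate response, was 7.09, 6.76 and 4.62 on SNP arrays against 2.82, 2.80 and 2.65 on untreated arrays (difference 3.40 ± 0.54, SE, adjusted p = 0.011). LOX2, the plastid lipoxygenase of jasmonate synthesis, was 2.62-fold higher, with 10.27, 9.98 and 9.64 on SNP arrays against 8.23, 8.51 and 8.97 on untreated arrays (adjusted p = 0.0167). CORI3, a cystine lyase that jasmonate and coronatine raise, was 3.92-fold higher (adjusted p = 0.00929), and JRG21, a jasmonate-regulated dioxygenase, differed by 2.39 (adjusted p = 0.00303). CORI3 and JRG21 are not in the jasmonate list and were named for the size of their differences. In that list, 2 of its 11 probe sets (18.18%, against 2.57% of all) were called higher and none lower, the median difference of the list was 0.35 against 0.00 over all probe sets, and AOS, allene oxide synthase, differed by 0.86 with an adjusted p of 0.09. The repressor gene JAZ1 (1.16, adjusted p = 0.07) and the defensin gene PDF1.2 (0.35) were not called either. VSP1/VSP2 was not called without SNP array 2 (adjusted p = 0.0515), and LOX2 not without SNP array 1 or 2 or untreated array 2 (up to 0.0704).

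Other large increases fell on genes of varied function. BGLU18, a beta-glucosidase of endoplasmic reticulum bodies that can release abscisic acid, was 10.19, 10.06 and 8.73 on SNP arrays against 7.23, 6.01 and 6.64 on untreated arrays, 8.21-fold higher (adjusted p = 0.00661). PGIP2, an inhibitor of fungal polygalacturonase, had nearly equal SNP values of 7.52, 7.44 and 7.53 against 4.74, 4.64 and 4.99 on untreated arrays, 6.53-fold higher (adjusted p = 0.00146). At3g28220, a gene of the TRAF-like family, differed by 3.65 ± 0.27 (SE, adjusted p = 0.00138), with 7.88, 7.83 and 6.94 on SNP arrays against 4.13, 3.81 and 3.76 on untreated arrays. These 3 were called under every alternative run. MGL, methionine gamma-lyase, was 7.28-fold higher (adjusted p = 0.00895), and LTP3, a lipid transfer protein, 5.89-fold (adjusted p = 0.00802). NAS2, a nicotianamine synthase that makes a metal chelator, was 3.88-fold higher (adjusted p = 0.0101), CER1 of wax alkane synthesis 4.41-fold (adjusted p = 0.0115) and PORB, the protochlorophyllide oxidoreductase that makes chlorophyll in light, 3.68-fold (adjusted p = 0.00303). BGLU44, another beta-glucosidase, was 9.69, 9.45 and 9.49 on SNP arrays against 7.39, 7.69 and 7.90 on untreated arrays, 3.69-fold higher (adjusted p = 0.0021). CYP81D11, a cytochrome P450, and NAC032, a stress-related transcription factor, were 8.62-fold and 6.11-fold higher, but neither was called when SNP array 1 or 2 or untreated array 2 or 3 was left out, or for CYP81D11 SNP array 3 (adjusted p up to 0.0986 for CYP81D11 and 0.0632 for NAC032). CER1 was not called without SNP array 2 (0.0552).

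Every call in the phosphate starvation list was higher. Plants short of phosphate replace phospholipids with sulfolipids and release phosphate from organic sources. Of 11 probe sets in the list, 6 (54.5%, against 2.57% of all probe sets) were called higher and none lower, 10 had a positive difference, and the median was 1.50 against 0.00 over all probe sets. PAP17, a purple acid phosphatase, was 8.77, 8.60 and 9.12 on SNP arrays against 6.999, 6.76 and 5.00 on untreated arrays, 5.99-fold higher (adjusted p = 0.0185). SQD2, which makes sulfolipid, was 6.71, 6.47 and 7.05 on SNP arrays against 5.60, 4.77 and 4.90 on untreated arrays, 3.15-fold higher (adjusted p = 0.0115). SQD1, which makes the sugar donor of sulfolipid, was 1.98-fold higher, the phosphodiesterase gene GDPD1 3.48-fold, the ribonuclease gene RNS1 2.83-fold and the phosphate sensor gene SPX1 3.88-fold, with adjusted p between 0.0259 and 0.0493. Outside the list, G3Pp1 and PAP8 stood among the 40 largest increases and were named after their values had been seen. G3Pp1, a glycerol-3-phosphate permease raised by phosphate starvation, was 8.47, 8.26 and 9.29 on SNP arrays against 6.42, 6.35 and 5.79 on untreated arrays, 5.61-fold higher (adjusted p = 0.0105). PAP8, another purple acid phosphatase, was 9.25, 9.24 and 8.78 on SNP arrays against 7.01, 6.70 and 6.49 on untreated arrays, 5.12-fold higher (adjusted p = 0.00138). The high-affinity phosphate transporter gene PHT1;4 was not called (difference -0.58), nor were SPX3 (0.58), PLDZ2 (0.90), PS2 (2.02) and PEPC1 (0.81).

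In this group SNP array 3 was the highest SNP array for PAP17, SQD2, GDPD1, SPX1 and G3Pp1, the opposite of its place for MLS, ICL and PCK1. For PAP8 it was the lowest SNP array (8.78). Only PAP8 and G3Pp1 of these 8 genes were called when any 1 of the 9 arrays was left out. Both were picked for the size of their differences, and no call of the list itself held in all of these fits. SQD2 was not called without untreated array 2 (adjusted p = 0.0529) and PAP17 not without any 1 SNP array (up to 0.0619). SQD1 was not called without any 1 of the SNP or untreated arrays (up to 0.0872), nor GDPD1 without SNP array 1 or any 1 untreated array (up to 0.115). RNS1 and SPX1 were not called without any 1 SNP or untreated array or cPTIO array 2 (up to 0.16 and 0.153). With the spike-in covariate PAP8 alone of the 8 was called, and thus no member of the list.

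Sulfur limitation genes showed a positive difference in 8 of 8 probe sets, with a median of 1.29, but only 2 were called higher, where 2.57% of all probe sets were. LSU1, a gene induced by sulfur deficiency, was 6.73, 7.36 and 7.12 on SNP arrays against 4.23, 4.04 and 4.23 on untreated arrays (adjusted p = 0.0452). SULTR4;2, a vacuolar sulfate exporter, was 5.38, 5.503 and 5.998 on SNP arrays against 4.33, 4.15 and 4.47 on untreated arrays (adjusted p = 0.0224). The SNP and untreated arrays did not overlap for 7 of the 8, where 29.9% of all probe sets had groups apart. The sulfur-deficiency gene SDI1 differed by 2.64 and APR1, which reduces activated sulfate, by 1.78, but both missed the threshold (adjusted p = 0.06 and 0.09). LSU1 was not called without any 1 SNP or untreated array or cPTIO array 2 (up to 0.15), and SULTR4;2 not without SNP array 2 or 3 or any 1 untreated array (up to 0.0941).

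Among genes that handle nitric oxide or reactive oxygen, CAT3 had the lowest adjusted p. CAT3, a catalase that breaks down hydrogen peroxide, was 10.57, 10.32 and 10.59 on SNP arrays against 8.64, 8.65 and 8.61 on untreated arrays, 3.63-fold higher (1.86 ± 0.09, SE, adjusted p = 0.000443). CAT1 was 1.64-fold higher (adjusted p = 0.00643), while CAT2, the main leaf catalase, differed by -0.17 and the superoxide dismutase genes CSD1, CSD2 and FSD1 by 0.09 to 0.26, with no call. The catalase and superoxide dismutase list thus held 2 higher calls among 6 probe sets. Over all probe sets 2.57% were called higher and 3.62% lower. Both haemoglobin genes were called, in opposite directions. AHB1, the haemoglobin that scavenges nitric oxide, was 9.37, 9.49 and 9.97 on SNP arrays against 10.73, 10.47 and 10.58 on untreated arrays, 1.98-fold lower (adjusted p = 0.0492). AHB2 was 8.02, 8.08 and 8.28 on SNP arrays against 7.57, 7.19 and 7.22 on untreated arrays, 1.74-fold higher (adjusted p = 0.0217). NIR1, nitrite reductase, was 1.62-fold higher (adjusted p = 0.0192), the only call among 5 probe sets of nitrate uptake and reduction. The nitrate reductase genes NIA1 (1.16) and NIA2 (0.49), the alternative oxidase genes AOX1A (0.74) and AOX1D (1.15) and the iron store FER1 (-0.59, adjusted p = 0.06) were not called. The root iron transporter IRT1, a marker of root epidermis, was 6.23, 5.20 and 6.31 on SNP arrays against 7.39, 6.64 and 7.38 on untreated arrays and was not called either (-1.23, adjusted p = 0.07).

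The haemoglobin calls were weak. AHB1 was not called without SNP array 1 or 2, any 1 untreated array or cPTIO array 2 (adjusted p up to 0.16). AHB2 was not called without any 1 SNP array or untreated array 2 or 3 (up to 0.0918), and NIR1 not without SNP array 2 or 3 or untreated array 2 (up to 0.0793). CAT1 and CAT3 were called when any 1 array was left out, and CAT3 with the spike-in covariate as well, while CAT1 then had an adjusted p of 0.0646. Against cPTIO seedlings neither haemoglobin gene was called: AHB1 differed by -0.77 (adjusted p = 0.135) and AHB2 by -0.17 (adjusted p = 0.621).

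Genes of cold, drought and abscisic acid had more higher than lower calls. Of 17 probe sets, 5 (29.4%) were called higher and 1 (5.88%) lower, against 2.57% and 3.62% of all probe sets, with a median of 0.30. RD20, a calcium-binding lipid-droplet protein induced by drought, was 8.67, 7.70 and 6.52 on SNP arrays against 4.92, 5.10 and 4.00 on untreated arrays, 7.76-fold higher (adjusted p = 0.0354). ABI1, a phosphatase that restrains abscisic acid signalling, was 2.43-fold higher and RD22, a dehydration-induced gene, 2.20-fold (adjusted p = 0.031 and 0.0282). COR15A differed by 0.75 and NCED3, the synthetic enzyme of abscisic acid, by 0.41. COR47, a dehydrin gene, ran the other way, with 7.96, 6.93 and 7.10 on SNP arrays against 10.26, 9.61 and 9.30 on untreated arrays, 5.25-fold lower (adjusted p = 0.0106). The dehydrin genes ERD10 (-1.39) and LTI30 (-0.99) were not called, and RD29A, RD29B, RAB18 and the cold regulators CBF1, CBF2 and CBF3 differed by -0.27 to 0.30 with no call. COR47 was not called without SNP array 2 (adjusted p = 0.0509). RD20 and ABI1 were not called without SNP array 1 or 2 or any 1 untreated array (up to 0.119 and 0.118), RD22 not without SNP array 1 or 2 or untreated array 3 (up to 0.107), COR15A not without SNP array 1 or 2 or untreated array 2 or 3 (up to 0.1), and NCED3 not in 8 of 9 such fits (up to 0.135).

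A pair of anthocyanin genes was called higher, with SNP array 3 nearer to the untreated arrays than SNP arrays 1 and 2. PAP1, the MYB factor that switches on anthocyanin synthesis, was 6.22, 6.26 and 4.27 on SNP arrays against 3.35, 3.45 and 3.26 on untreated arrays (difference 2.23, adjusted p = 0.0292). UGT75C1, an anthocyanin glucosyltransferase, was 8.53, 8.95 and 6.94 on SNP arrays against 5.53, 6.22 and 5.43 on untreated arrays, 5.32-fold higher (adjusted p = 0.0241). These were the only calls among 14 flavonoid probe sets (14.3%, against 6.19% of all). DFR, dihydroflavonol reductase, was 9.45, 9.62 and 7.95 on SNP arrays against 5.94, 8.25 and 7.73 on untreated arrays, so that the groups overlapped (1.70, adjusted p = 0.17). Early pathway genes did not follow: CHS, chalcone synthase, differed by -0.04 and F3H by -0.09. PAP1 and UGT75C1 were not called without SNP array 1 or 2 or any 1 untreated array (up to 0.104 and 0.0861). The clock gene LHY, a morning repressor, was 2.38-fold higher (adjusted p = 0.0484) as the only call among 10 clock probe sets, and was not called in 7 of 9 fits that left out an array (up to 0.17). In the glucosinolate list, 2 of 13 (15.4%, against 2.57% of all) were called higher: CYP79B3, the first enzyme of indole glucosinolates, 2.22-fold (adjusted p = 0.00635) and MAM1, which elongates methionine, 2.07-fold (adjusted p = 0.0211). MAM1 was not called without SNP array 1 or 2 or untreated array 1 or 2 (up to 0.0907).

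**Figure D2:**
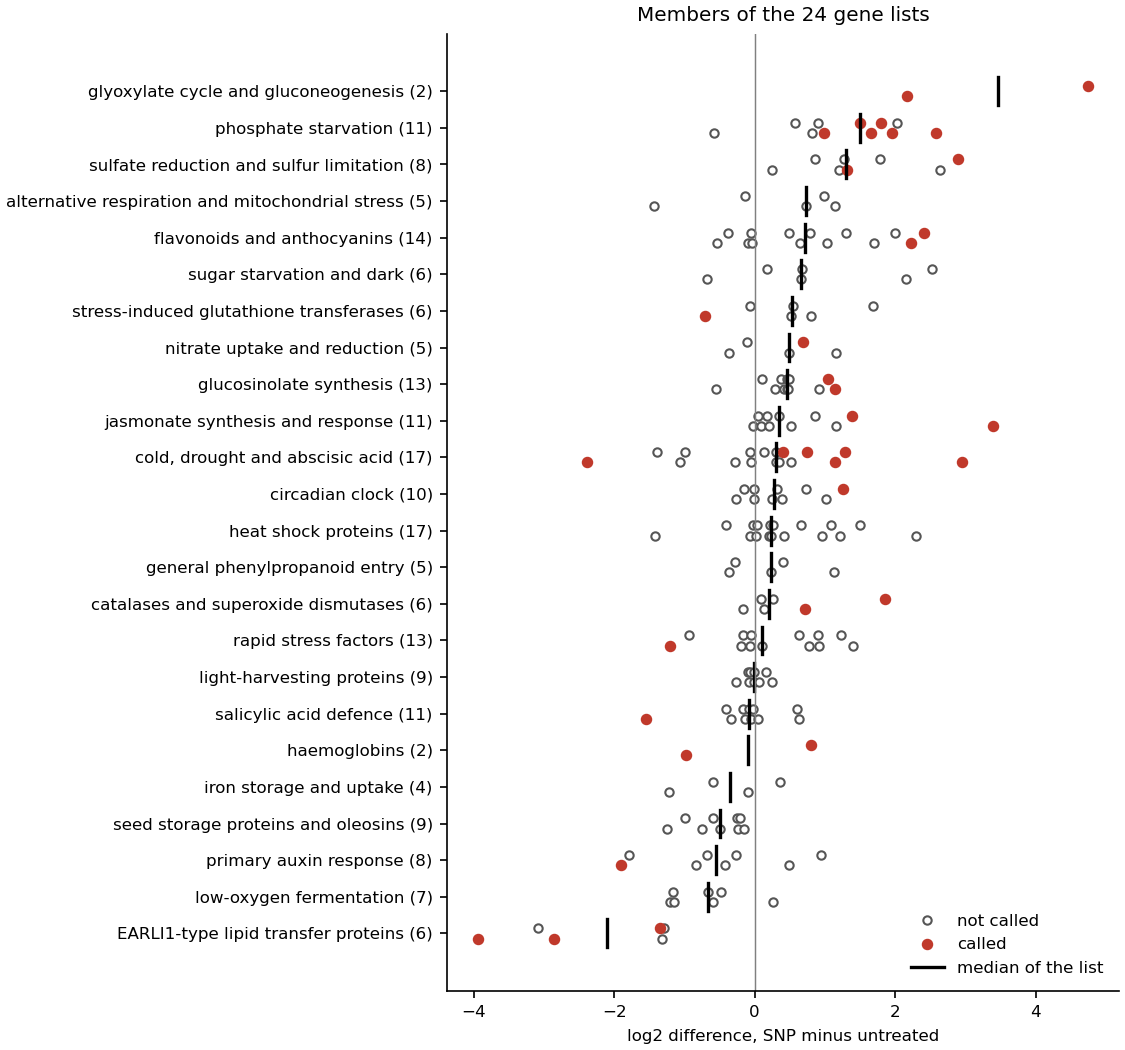
Log2 difference, SNP minus untreated, for each probe set in the 24 gene lists, with list sizes in brackets; filled circles were called at an adjusted p under 0.05, open circles were not, and black bars are list medians. The medians run from -2.10 for EARLI1-type lipid transfer proteins to 3.46 for the glyoxylate cycle and gluconeogenesis.

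The largest decrease of all probe sets belonged to a family of lipid transfer proteins. The probe set shared by At5g46890 and At5g46900, which encode EARLI1-type lipid transfer proteins, was 3.31, 4.24 and 3.19 on SNP arrays against 8.46, 6.97 and 7.15 on untreated arrays (-3.94 ± 0.44, SE, adjusted p = 0.00323). The probe set shared by At4g12510 and At4g12520 of the same family was 5.53, 6.61 and 5.73 on SNP arrays against 9.42, 8.49 and 8.53 on untreated arrays, 7.26-fold lower (adjusted p = 0.00347). AZI1, a member linked to systemic priming of defence, was 10.44, 10.43 and 10.20 on SNP arrays against 11.65, 11.65 and 11.79 on untreated arrays, 2.53-fold lower (adjusted p = 0.00507). All 3 were called whichever array was left out, but with the spike-in covariate AZI1 was not (adjusted p = 0.0584). EARLI1 itself (-1.32, adjusted p = 0.15), At4g12490 (-1.29) and At4g12500 (-3.09) were not called, so that 3 of 6 probe sets were called lower, where 3.62% of all probe sets were, none higher, and the list's median was -2.10. On untreated arrays At4g12500 ranged from 6.18 to 10.52.

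The root hair genes that could be found were lower in SNP seedlings. Of 20 root hair genes listed after earlier values had been seen, the annotation gave a probe set for 5, and all 5 were called lower, where 3.6% of probe sets paired with a single gene were. XTH26, a root-hair xyloglucan enzyme, was 2.91, 2.96 and 2.73 on SNP arrays against 6.25, 5.15 and 4.74 on untreated arrays (-2.51, adjusted p = 0.00824). PRX44, a root-hair peroxidase, was 6.42, 5.77 and 5.45 on SNP arrays against 8.93, 8.22 and 8.26 on untreated arrays, 6.04-fold lower (adjusted p = 0.00629). The expansin genes EXPA7 and EXPA18, which act in hair outgrowth, were 1.97-fold and 2.44-fold lower (adjusted p = 0.0192 and 0.00702), and PME46, a pectin methylesterase, 2.98-fold (adjusted p = 0.0333). EXPA7 was not called without any 1 untreated array (up to 0.0634), nor PME46 without SNP array 2 or 3 or any 1 untreated array (up to 0.105). Other members of the cell-wall families did not all follow: XTH19 was 3.13-fold higher (adjusted p = 0.0207) and EXPA20 0.97 higher (adjusted p = 0.0208), while XTH33 was 2.00 lower (adjusted p = 0.0149). Of 9 annotated XTH probe sets, 1 was called higher and 2 lower, and of 10 for alpha-expansins also 1 and 2. Among probe sets paired with a single gene, 1.92% were called higher and 3.6% lower. XTH19 was not called without any 1 SNP array or untreated array 2 or 3 (up to 0.073), EXPA20 not without SNP array 1 or 2 or untreated array 1 or 2 (up to 0.0836), and XTH33 not without SNP array 1 or 2 or untreated array 2 (up to 0.0674).

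Class III peroxidases, secreted enzymes that cross-link or loosen cell walls with hydrogen peroxide, moved in both directions. The annotation gave a probe set for 55 of the 73 genes, of which 8 were called lower, 4 higher and 43 not, or 21.8% called against 5.51% of all probe sets paired with a single gene (1.92% higher, 3.6% lower). The family was picked after earlier values had been seen, and its median difference was -0.18. PRX39 was 4.28, 4.15 and 4.39 on SNP arrays against 7.15, 7.35 and 7.36 on untreated arrays (-3.01, adjusted p = 0.00389). PRX27 was 4.90, 4.76 and 4.72 on SNP arrays against 8.03, 7.17 and 7.18 on untreated arrays, 6.35-fold lower (adjusted p = 0.0052). PRX59 differed by -2.78, PRX71 was 4.44-fold lower and PRX69 2.62-fold, while PRX30 and PRX45 were 2.13-fold and 2.12-fold lower. Of the higher ones, PRX66 was 7.45, 7.35 and 7.37 on SNP arrays against 6.56, 6.34 and 6.07 on untreated arrays, 2.09-fold higher (adjusted p = 0.00366). PRX12 was 1.87-fold and PRX42 1.48-fold higher, and PRX17 differed by 1.16. The weakest of these calls were PRX30 and PRX45, not called without any 1 SNP or untreated array (adjusted p up to 0.11 and 0.104), and PRX42, not called without SNP array 1 or untreated array 1 or 2 (up to 0.0725); the other 9 were called when any 1 array was left out.

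**Figure D3:**
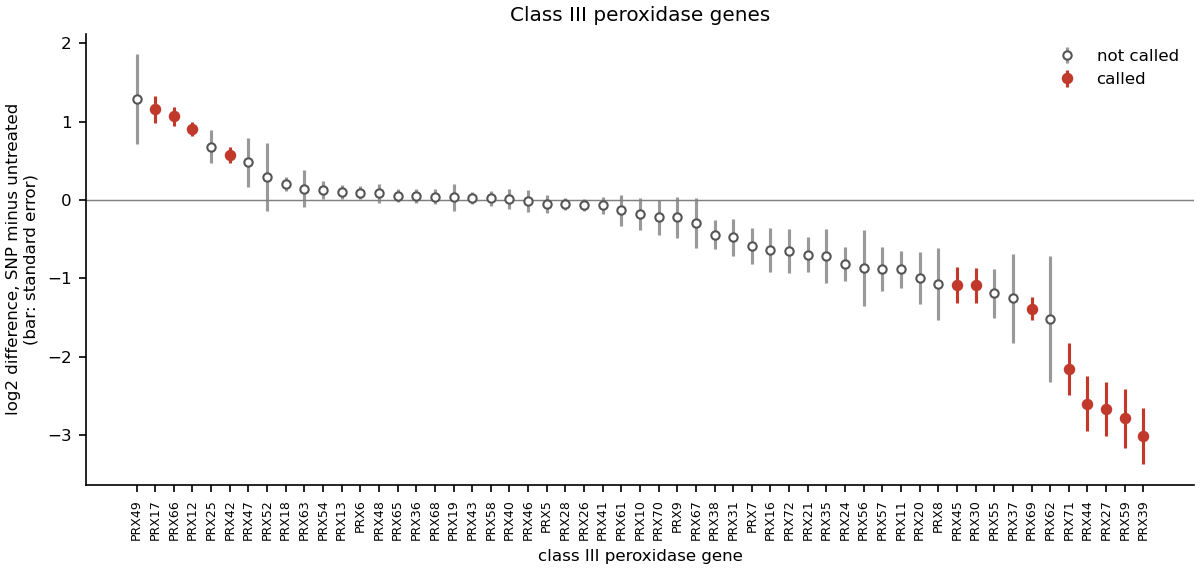
Log2 difference, SNP minus untreated, with its standard error for 55 class III peroxidase genes in order of the difference; filled circles were called, open circles were not. The 8 lower calls reach -3.01 for PRX39, and the 4 higher calls reach 1.16 for PRX17.

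The other large decreases fell on genes of varied function. Of the 40 largest, 30 could be named, 8 of them after their values had been seen, which holds for MLP328, MLP329, AGP14, XTH12, CYP81F4, KTI1 and HR4. MLP328 and MLP329, neighbouring genes for major latex protein-like proteins, were both lower. MLP329 was 4.33, 4.73 and 5.87 on SNP arrays against 9.18, 8.51 and 8.48 on untreated arrays, 13.5-fold lower (adjusted p = 0.00517), and MLP328 was 2.62, 2.44 and 2.50 on SNP arrays against 6.66, 5.81 and 5.75 on untreated arrays (-3.55, adjusted p = 0.00454). AGP14, an arabinogalactan peptide of roots, was 5.28, 5.71 and 4.79 on SNP arrays against 9.55, 8.84 and 8.48 on untreated arrays, 12.96-fold lower (adjusted p = 0.00159). XTH12, a root xyloglucan enzyme, was 7.60-fold lower (adjusted p = 0.00243), and the probe set shared by the pair of root cineole synthase genes TPS-CIN differed by -2.81 (adjusted p = 0.00661). CYP81F4, which modifies indole glucosinolates, was 5.45, 5.63 and 5.48 on SNP arrays against 9.22, 8.55 and 8.86 on untreated arrays, 10.2-fold lower (adjusted p = 0.00645), although CYP79B3 of the same pathway was higher. KTI1, a trypsin inhibitor that limits cell death, was 7.64, 7.15 and 6.69 on SNP arrays against 9.65, 9.64 and 9.69 on untreated arrays, 5.65-fold lower (adjusted p = 0.00303). All of these were called when any 1 array was left out, and all but CYP81F4 (adjusted p = 0.0706) with the spike-in covariate.

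In the salicylic acid list 1 of 11 was called (9.09%, against 6.19% of all probe sets), with a median of -0.08. PR5, a thaumatin-like protein, was 3.57, 3.37 and 3.31 on SNP arrays against 5.06, 4.92 and 4.92 on untreated arrays (-1.55, adjusted p = 0.0046, or 0.0584 with the spike-in covariate). PR1 (-0.41) and PR2 (-0.02) were not called, and PR2 lay below the array medians in both groups. WRKY53, a regulator of defence and senescence, was 1.21 lower (adjusted p = 0.0356) as the only call among 13 rapid stress factors, while ZAT10 (1.41) and ZAT12 (1.23) were not called. GSTF6/GSTF7, glutathione transferases that share a probe set, were 1.64-fold lower (adjusted p = 0.00719), the only call among 6 in their list. The other genes described beside these were among the 40 largest decreases and are named for their size, not from a list. At4g16260, a beta-1,3-glucanase, was 5.78, 5.41 and 5.80 on SNP arrays against 8.79, 8.71 and 9.11 on untreated arrays, 9.22-fold lower (adjusted p = 0.00146). At4g33720, a secreted protein of the PR-1 type, was 3.53, 4.27 and 4.23 on SNP arrays against 7.50, 7.93 and 8.10 on untreated arrays (-3.83, adjusted p = 0.0141). HR4, a relative of the mildew resistance protein RPW8, was 7.19-fold lower (adjusted p = 0.00374), At2g38870, a proteinase inhibitor of the PR-6 type, 5.55-fold (adjusted p = 0.00243), and the probe set shared by the defensin-like genes At5g33355 and At3g59930 differed by -3.31 (adjusted p = 0.00323). At4g33720 was not called without SNP array 1 or 2 or untreated array 2 (up to 0.0608), nor WRKY53 without any 1 SNP or untreated array (up to 0.133).

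**Figure D4:**
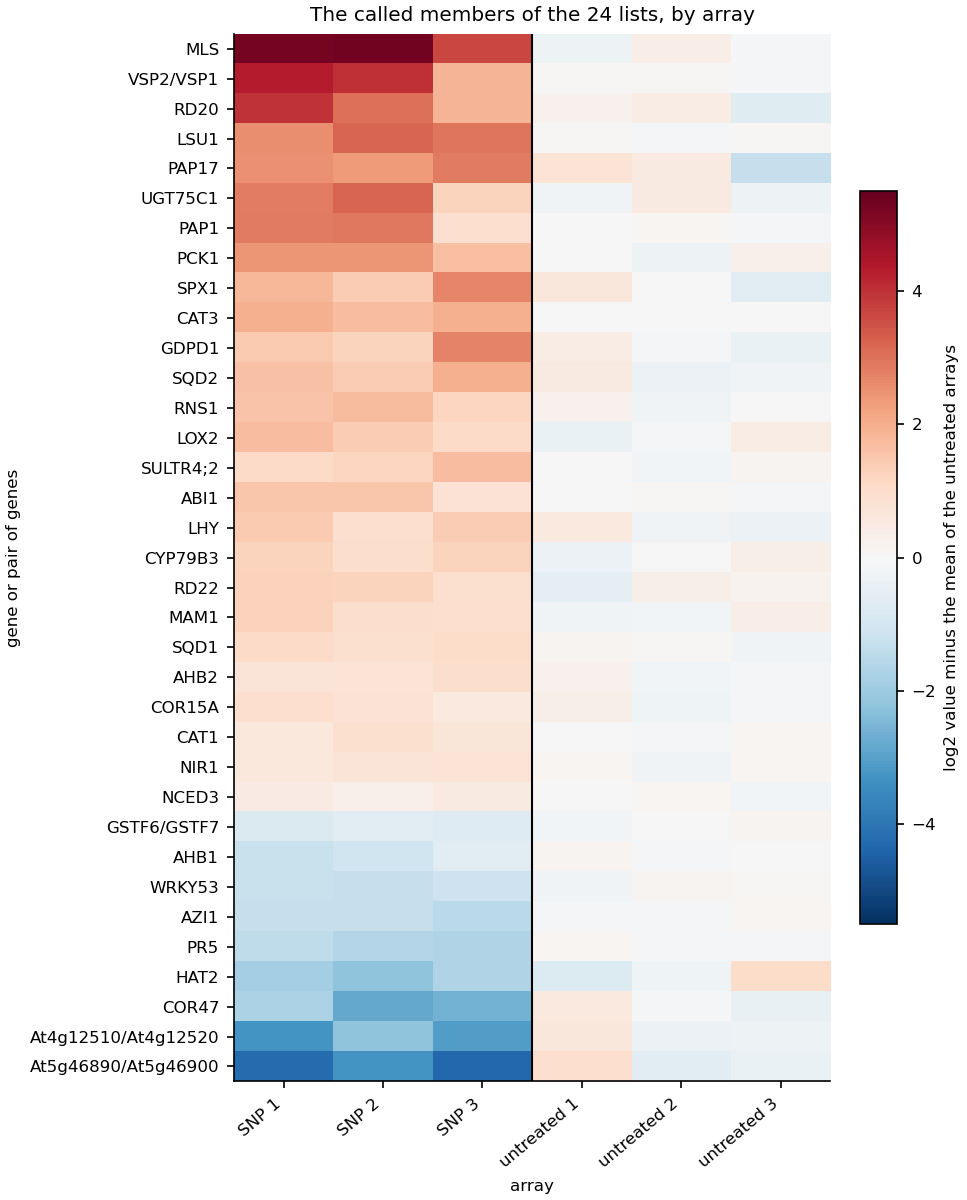
Log2 value minus the mean of the untreated arrays for the 35 called probe sets of the 24 lists (rows, in order of the difference) on each SNP and untreated array (columns); red is higher and blue lower. SNP array 3 is paler than SNP arrays 1 and 2 for MLS, VSP2/VSP1, RD20, UGT75C1 and PAP1 and darker for SPX1 and GDPD1.

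Across all 24 lists, 35 of 205 probe sets (17.1%) were called, 26 higher and 9 lower, against 6.19% of all probe sets (2.57% higher and 3.62% lower), but the lists were chosen with earlier results of these data known. In 8 lists no member passed the test. The 17 heat shock probe sets had a median of 0.24 and wide spread among SNP arrays: the log2 of their summed level was 11.88, 11.08 and 9.14 on SNP arrays and 10.18, 10.70 and 10.18 on untreated arrays. HSP101, which disaggregates proteins, was 7.92, 6.50 and 4.86 on SNP arrays against 5.76, 4.96 and 4.92 on untreated arrays. Low-oxygen fermentation genes had a median of -0.67, with 6 of 7 differences negative; ADH1, alcohol dehydrogenase, was 10.22, 10.28 and 9.48 on SNP arrays against 10.75, 11.29 and 11.39 on untreated arrays (-1.15, adjusted p = 0.15). The light-harvesting genes had a median of -0.01. The sugar starvation list reached 2.53 for DIN2 without a call, and the phenylpropanoid, alternative respiration and iron lists had medians of 0.23, 0.74 and -0.34. In the auxin list 1 of 8 was called, HAT2, which was 3.75-fold lower (adjusted p = 0.0352) but not called without any 1 SNP array or untreated array 2 (up to 0.128).

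Larger families, themselves chosen by hand, were read through the annotation, by gene symbol or, for the plastid genome, by location. Genes without such a symbol in the annotation were left out, among them UGT75C1, CYP81D11, CYP79B3 and CYP81F4. The counts therefore do not cover whole families. Of 69 probe sets for genes of the plastid genome, 4 were called lower and none higher, or 5.80% against 3.6% called lower among all probe sets paired with a single gene, with a median of -0.16. The largest was rpl16, a plastid ribosomal protein gene, at 8.00, 7.77 and 7.94 on SNP arrays against 10.31, 10.43 and 10.49 on untreated arrays, 5.68-fold lower (adjusted p = 0.00327). petL, of the cytochrome b6f complex, was 2.29-fold lower (adjusted p = 0.00374). The ribosomal protein gene rpl20 and the photosystem gene psbZ were 2.40-fold and 1.47-fold lower, but rpl20 was not called without SNP array 1 or 2 or untreated array 2 or 3, nor psbZ without those or SNP array 3 (adjusted p up to 0.115 for both). The 26 cytochromes P450 held 5 lower calls and 1 higher, or 23.1% called against 5.51% of probe sets paired with a single gene. The lower ones were CYP718 and 4 of the 19 CYP71B probe sets: CYP71B36 was 2.77, 3.21 and 2.82 on SNP arrays against 5.19, 5.59 and 5.22 on untreated arrays (-2.40, adjusted p = 0.00146), and CYP71B26 was 4.64-fold lower (adjusted p = 0.00754), both called whichever array was left out. CYP71B24 was not called without SNP array 2 or 3 or untreated array 2 or 3 (up to 0.112), CYP71B29 not without SNP array 1 or 2 or untreated array 2 (up to 0.0866), CYP718 not without SNP array 1 or 2 or untreated array 3 (up to 0.0592), and the higher one, CYP84A4, was called in only 2 of 9 such fits (up to 0.133). The 47 UDP-glycosyltransferases held 2 higher and 3 lower calls, or 10.6% against the same 5.51%, the lower ones being UGT71C1, UGT71C2 and UGT71C3, of which UGT71C1 and UGT71C3 were not called without any 1 SNP or untreated array or, for UGT71C3, cPTIO array 1 or 2 (up to 0.0804 and 0.157). The higher ones, UGT71B1 and UGT73C1, were called in 3 and 2 of 9 such fits (up to 0.132 and 0.158). Of the 14 sugar transporters of the SWEET family, 11 RALF-like peptides and 7 Aux/IAA repressors, none was called.

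SNP and cPTIO seedlings differed at 742 probe sets (3.26%), 381 (1.68%) higher and 361 (1.59%) lower in SNP seedlings. That comparison shares its SNP arrays with the one against untreated seedlings, and the agents differed in dose and route, so values are given side by side. For MLS the difference was 3.73 against cPTIO (adjusted p = 0.0247), beside 4.75 against untreated seedlings. For AGP14 it was -3.65 (adjusted p = 0.00213), beside -3.70. At4g16260 stood at -2.85 (adjusted p = 0.00213) beside -3.21, and PAP8 at 2.42 (adjusted p = 0.00145) beside 2.36. Other genes called against untreated seedlings had small differences from cPTIO seedlings that were not called. CAT3 differed by 0.12 (adjusted p = 0.569) beside 1.86, PAP17 by 0.17 (adjusted p = 0.895) beside 2.58, and G3Pp1 by 0.06 (adjusted p = 0.961) beside 2.49. CYP71B26 differed by -0.03 (adjusted p = 0.973) beside -2.21, and rpl16 by 0.53 (adjusted p = 0.366) beside -2.50. Of the 5 root hair probe sets, 0 were called against cPTIO seedlings. XTH26 differed by -0.61 (adjusted p = 0.44) beside -2.51, and PRX44 by -1.56 (adjusted p = 0.0551) beside -2.59. The root gene XTH12 was not called either (-1.07, adjusted p = 0.0872, beside -2.93). These p-values do not show that SNP and cPTIO seedlings had equal levels.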

How the data were processed

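Values are log2 expression levels as the authors deposited them. RMA and limma appear, without versions, in the submitters' processing notes. Because RMA equalises arrays, a shift common to most messages is mostly lost. Of 22810 probe sets, 64 controls were set aside. The model (limma 3.58.1, R 4.3.3) used the 9 arrays and their 3 groups, with no covariate or filter; tests were two-sided with Benjamini-Hochberg adjustment over 22746 probe sets. The fit was tested on simulated data. Replicate numbers were not taken to pair arrays: deviations of same-numbered SNP and untreated arrays correlated at 0.127, -0.0174 and 0.0849. Control transcripts were compared with an exact permutation test, whose smallest p is 0.1. The platform annotation listed 14016 probe sets, 503 of them with several genes; 13436 single genes were updated through RefSeq gene IDs. Named genes were drawn from called list members, members not called on which a list turns, and called members of annotated families. They were also drawn from the 40 largest differences in each direction among calls whose groups did not overlap. Not every such gene is named. A list of 8 nucleolus and ribosome assembly genes, made after earlier values had been seen, was left out. It had 2 probe sets, and 2 were called lower, where 3.6% of probe sets paired with a single gene were. Members and lists were chosen with earlier results of these data known. Python 3.11.15 with matplotlib 3.10.9 made the plots. The number of arrays limits the precision.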

Additional observations from a re-analysis of the deposited data

Results flagged for a closer look

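Spike-in and control transcripts, which the comparison of genes did not use, were higher on all 3 SNP arrays than on all 3 untreated arrays for 8 of 11 transcripts. Of the 22746 other probe sets, 29.9% had groups that did not overlap, in either direction. Among the hybridisation spike-ins, BioC was 8.46, 8.50 and 8.64 on SNP arrays against 6.50, 6.34 and 6.14 on untreated arrays, a log2 difference of 2.21. BioB differed by 0.51, BioD by 0.30 and cre by 0.19. Among the poly-A spike-ins, dap differed by 1.07, phe by 0.40 and thr by 0.55, and lys by 0.26 with overlapping groups. The plant ubiquitin transcript was 11.30 ± 0.02 on SNP arrays and 10.99 ± 0.03 on untreated arrays (SD, n = 3 each), a difference of 0.31. Each of the 8 reached the smallest p that an exact two-sided permutation test of 3 arrays against 3 allows, 0.1, or 0.138 adjusted over the 11 transcripts. Actin and GAPDH differed by 0.16 and -0.14, with overlapping groups. The part of the spike-in levels in the gene results was tested only with the poly-A spike-ins as a covariate, as given under the dependence on the processing. BioC and the other hybridisation spike-ins entered no fit.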

How the results depend on the processing

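No called gene described here changed direction under the 19 alternatives. The number of called probe sets did change, from 1409 (585 higher, 824 lower; 35 list members) as reported. With SNP and untreated arrays alone it was 2440 (1018 higher, 1422 lower; 55 list members), with the replicate block added 2013 (61 list members), and with array weights 3560 (1646 higher, 1914 lower; 64 list members). Without both arrays numbered 3 of the treated groups it was 2256 (1057 higher; 61 list members), and with poly-A spike-ins as a covariate 260 (110 higher, 150 lower; 6 list members). Leaving out 1 array at a time gave 500 to 2542 (higher 175 to 1104, lower 315 to 1438, list members 12 to 60), the highest without cPTIO array 3 and the lowest without SNP array 2. Median centring, an intensity trend, testing only the brighter probe sets (1197 calls), leaving out probe sets that match several transcripts, and leaving out untreated array 1 from the SNP and untreated arrays, added after seeing the data, stayed within 1.5 times. The cause of these changes was not tested. Of 122 called probe sets in the lists and families or named among the largest differences, 59 were called whichever array was left out, 44 with the spike-in covariate and 112 with the replicate block, and 40 under every alternative that tested them. Replicate numbers were not taken to pair the arrays. Signal over background is unknown, so values near the array medians have no order.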
